A study of Mus musculus with 3 samples.

Results

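The interferon-stimulated antiviral effectors examined here are 10 genes, Ifit1, Ifit2, Ifit3, Isg15, Usp18, Rsad2, Bst2, Mx1, Mx2 and Ifi44, of 24421 genes in the deposited counts. They were listed by gene symbol as antiviral effectors that interferon induces, and were selected on their read counts in the libraries described here. Those counts are therefore given as a description and are not tested. Expression was measured by RNA-Seq in EL16.7, a female mouse embryonic stem (ES) cell line labelled F2:129S1/CastEiJx 129S1, to ask how loss of the nucleoporin NUP153 changes transcription. There were 3 libraries, 1 per condition. Control cells received a scramble shRNA and NUP153 knockdown cells received shRNA-1 or shRNA-2, each from lentivirus. The knockdown libraries are called KD-1 and KD-2 here on the assumption that the shRNA numbers in the labels match the numbers the study gives its knockdowns. All 3 cultures were undifferentiated, grown with LIF on γ-irradiated embryonic fibroblasts from Tg(DR4)1Jae/J mice, and selected with 2 μg/ml puromycin for 2 days. With 1 library per condition no difference has a replicate check, and all intervals given are 95% intervals that cover the counting of reads only.

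Interferons are secreted cytokines that cells release when they sense viral nucleic acid. Type I interferons bind the receptor IFNAR, the kinases JAK1 and TYK2 pass the signal on to transcription factors, STAT2 and IRF9 among them, and these bind interferon-stimulated response elements in the promoters of effector genes. Pluripotent cells are known for a weak interferon response, while fibroblasts respond strongly.

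The response element is built around GAAA, 2 bases of any kind and again GAAA, which reads on the opposite strand as TTTC, 2 bases of any kind and TTTC. Promoter windows from 250 bases before to 50 bases after the start site were taken from RefSeq (GRCm38.p6), which held windows for 7 of the 10 genes, with Mx1, Mx2 and Usp18 not matched. The motif was present on either strand in 5 of the 8 windows of these genes (62.5%), 1 window each in 5 genes, beside 3.44% of all 32851 promoter windows of 300 bases. It was also common in a list of other interferon-stimulated genes described below, in 32 of 76 windows (42.1%). No window of Ifit2 or Ifi44 held these letters. The stretches that hold it are shown so that genes with a large and a small difference in KD-1 can be compared. They are written 5′ to 3′ on the strand of the gene, with the motif in capitals, and come from chr19:34640750-34640848 (plus strand) for Ifit1, chr19:34583338-34583451 (plus strand) for Ifit3, chr4:156200840-156200931 (minus strand) for Isg15, chr12:26456528-26456607 (minus strand) for Rsad2 and chr8:71537552-71537637 (minus strand) for Bst2.
Ifit1: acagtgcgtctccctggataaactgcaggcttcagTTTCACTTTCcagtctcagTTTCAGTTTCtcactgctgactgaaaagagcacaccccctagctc
Ifit3: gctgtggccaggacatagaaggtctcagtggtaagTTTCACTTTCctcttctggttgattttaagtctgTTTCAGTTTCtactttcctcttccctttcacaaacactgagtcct
Isg15: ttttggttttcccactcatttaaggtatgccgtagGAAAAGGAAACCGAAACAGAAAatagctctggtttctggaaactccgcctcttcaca
Rsad2: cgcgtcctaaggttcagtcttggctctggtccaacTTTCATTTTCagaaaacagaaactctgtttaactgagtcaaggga
Bst2: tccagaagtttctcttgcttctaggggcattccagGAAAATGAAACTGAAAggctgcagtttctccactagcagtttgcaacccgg
In Isg15 the 3 matches start at positions -78, -72 and -66 from the start site, and neighbouring matches overlap. In Bst2 the 2 matches also overlap, at positions -130 and -124. Those of Ifit1 are separate, at positions -104 and -85, as are those of Ifit3, at positions -156 and -122, and Rsad2 held 1 match at position -120.

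The control, KD-1 and KD-2 libraries held 72344726, 85258834 and 69839336 reads on genes. Nup153, the target of both shRNAs, had 27870, 16451 and 11126 reads, which after upper-quartile scaling is -0.99 (KD-1) and -1.43 (KD-2) on the log2 scale. The 12 pluripotent cell markers had reads in every library and summed to 4968, 5428 and 4096 RPM (reads relative to the library total on genes) in control, KD-1 and KD-2. Markers of the feeder fibroblasts were present as well, at 2330, 1274 and 4457 RPM over 14 genes. The 8 leukocyte markers summed to 7.51, 9.84 and 10.6 RPM in the same order, higher in both knockdown libraries than in control. Most of these reads were on Laptm5, with 263, 452 and 402 reads, and Cd68, with 178, 255 and 241, while the defining markers Ptprc and Adgre1 had 6, 6 and 12 and 1, 3 and 4 reads.

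The 10 effector genes together held 6975, 2659 and 8157 reads in the same order of libraries, which is 96.4, 31.2 and 117 RPM. The KD-1 library was the low one, and the control and KD-2 libraries lay close together for most of the genes. Since these are bulk samples, fewer cells of a type and less RNA per cell cannot be told apart.

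**Figure D1:**
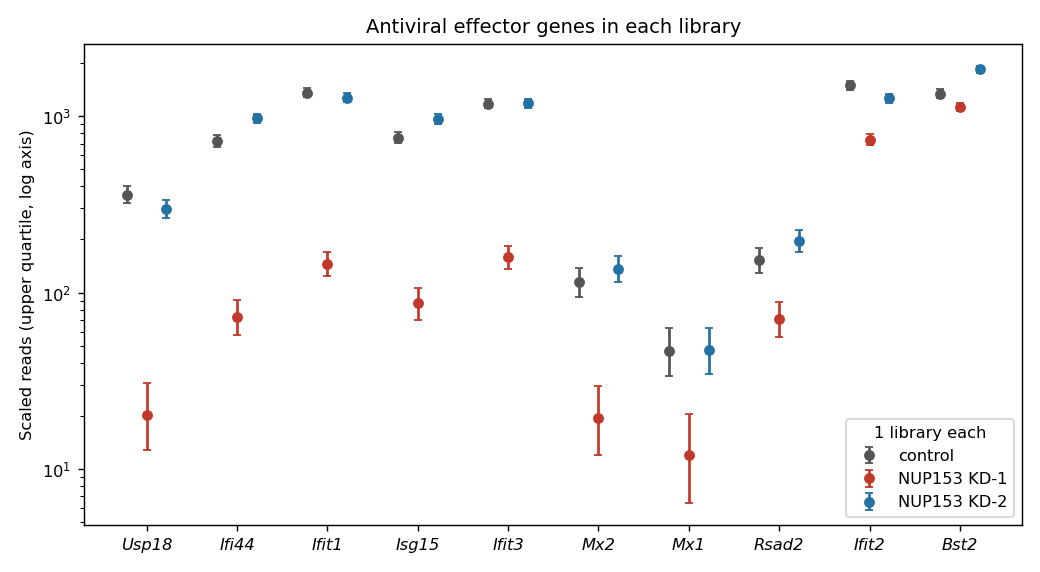
Reads of each gene after upper-quartile scaling (vertical log axis) in the control, NUP153 KD-1 and NUP153 KD-2 libraries, 1 library each, with exact Poisson intervals for the counting of reads. For Usp18 the KD-1 library sits at 20.3 scaled reads against 360 in control and 298 in KD-2, while for Bst2 the 3 libraries lie between 1129 and 1847.

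The Ifit genes encode proteins with tetratricopeptide repeats that bind viral RNA or block its translation. They lie in a cluster on chromosome 19 (GRCm38). Ifit1, from 34640871 to 34650009, had 1260, 158 and 1274 reads in the control, KD-1 and KD-2 libraries. Scaled by library, Ifit1 was 9.32 times lower in KD-1 than in control, a log2 fold change of -3.22 (interval -3.47 to -2.98). Ifit3, from 34583531 to 34588731, had 1091, 172 and 1179 reads in the same order. It was 7.41 times lower in KD-1, at -2.89 (interval -3.13 to -2.66). Both genes were thus low in the KD-1 library alone among the 3 libraries. Ifit2, from 34550694 to 34576419 in the same cluster, encodes an RNA-binding family member, and it had 1385, 799 and 1258 reads. Its log2 fold change in KD-1 was -1.02 (interval -1.15 to -0.90), 2.03 times lower than control, and the intervals of Ifit2 and its neighbours Ifit1 and Ifit3 did not overlap. Of the 50-base stretches in Ifit3 transcripts, 51.2% also occur in Ifit3b, a copy in the same cluster, so that reads of this pair could be separated only in part. Ifit3b itself had 428, 74 and 569 reads in the control, KD-1 and KD-2 libraries. For Ifit1 the share was 7.13%, with Ifit1bl1 and Ifit1bl2, and for Ifit2 it was 0%.

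ISG15 is a ubiquitin-like protein that is joined to target proteins, and USP18 removes it again and also blocks signalling at the interferon receptor. Isg15, on chromosome 4 from 156199424 to 156200818, had 701, 94 and 960 reads in the control, KD-1 and KD-2 libraries. This made it 8.69 times lower in KD-1 than in control (log2 fold change -3.12, interval -3.45 to -2.81). Usp18, on chromosome 6 from 121245906 to 121270917, had 333, 22 and 297 reads. At a log2 fold change of -4.12 (interval -4.84 to -3.53) Usp18 was 17.3 times lower in KD-1, the lowest value among 16670 measured genes, those whose reads averaged 10 or more across the libraries. Exons of Usp18 overlap an annotated gene on the opposite strand, Gm44148, and the strand setting of the counting is not given in the sources used here. The other genes of ISG15 conjugation did not all share this. Uba7, the activating enzyme for ISG15, had 132, 73 and 217 reads, giving -1.08 (KD-1) and 0.61 (KD-2) on the log2 scale. Herc6, a ligase for ISG15 in mouse, had 492, 283 and 208 reads, giving -1.03 and -1.35. Ube2l6, the conjugating enzyme, had 7156, 10725 and 8735 reads, at 0.36 and 0.18.

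Ifi44, an interferon-induced gene of the cytoplasm on chromosome 3 from 151730922 to 151749960, had 671, 79 and 970 reads in the control, KD-1 and KD-2 libraries. It was 9.89 times lower in KD-1 than in control, at a log2 fold change of -3.31 (interval -3.67 to -2.98). The Mx genes encode dynamin-like GTPases that trap viral components, Mx1 in the nucleus and Mx2 in the cytoplasm of mouse cells. RefSeq lists both as transcribed pseudogenes in the C57BL/6J genome. Mx1 (chromosome 16, 97447035 to 97462907) had 43, 13 and 47 reads, and Mx2 (97535308 to 97560900) had 106, 21 and 136. With so few reads the intervals are wide. The log2 fold change in KD-1 was -1.91 for Mx1 (interval -2.97 to -1.03) and -2.53 for Mx2 (interval -3.31 to -1.88). In both genes the KD-1 library was the low one and the other libraries overlapped within counting error.

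Rsad2 and Bst2 differed less. Rsad2, on chromosome 12 from 26442746 to 26456452, encodes viperin, a radical SAM enzyme that makes a chain-terminating nucleotide. It had 141, 77 and 195 reads in the control, KD-1 and KD-2 libraries, and was 2.14 times lower in KD-1 (log2 fold change -1.10, interval -1.52 to -0.69). Cmpk2, which lies beside Rsad2 and supplies nucleotides for the same chemistry, had 191, 111 and 187 reads, at -1.01 in KD-1. Bst2, on chromosome 8 from 71534255 to 71537456, encodes tetherin, which holds budding virus at the cell surface. It had 1244, 1224 and 1841 reads in the control, KD-1 and KD-2 libraries. Its log2 fold change in KD-1 was -0.25 (interval -0.37 to -0.14), under 1.5-fold, so that Bst2 stood apart from the other 9 genes.

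In KD-1 against control, 9 of the 10 genes were lower by over 1.5-fold and 0 were higher. Over all 16670 measured genes 5.62% were lower by over 1.5-fold, and the list was chosen with this comparison in view. The same 9 genes were lower by over 2-fold, beside 1.53% of all genes. A difference of over 4-fold was seen in 6 genes, Usp18, Ifi44, Ifit1, Isg15, Ifit3 and Mx2, beside 0.168% of all genes. Ranked from the lowest log2 fold change in KD-1, Usp18 stood at 1, Ifi44 at 2, Ifit1 at 4, Isg15 at 6, Ifit3 at 8, Mx2 at 15 and Mx1 at 34. Rsad2 stood at 205, Ifit2 at 241 and Bst2 at 2706. The median log2 fold change was -2.71 for the 10 genes and 0.02 for all measured genes.

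In KD-2 against control, 0 of the 10 genes were lower and 0 were higher by over 1.5-fold, while 10.2% of all measured genes were lower and 17.1% were higher. The log2 fold changes lay between -0.27 for Usp18 and 0.46 for Bst2, with a median of 0.14. Intervals lay above 0 for Bst2 (0.35 to 0.56), Ifi44 (0.28 to 0.57), Isg15 (0.20 to 0.49) and Rsad2 (0.04 to 0.68). They lay below 0 for Ifit2 (-0.36 to -0.13) and Usp18 (-0.50 to -0.04). For Ifit1, Ifit3, Mx1 and Mx2 the interval held 0. Scaling by library totals moved the median of all genes in KD-2 from -0.02 to 0.14 and put Bst2, at 0.62, past 1.5-fold. With this scaling the intervals of Ifit2 (-0.20 to 0.02) and Usp18 (-0.35 to 0.12) held 0, and those of Ifit3 (0.04 to 0.28) and Mx2 (0.03 to 0.79) lay above 0, so that the small KD-2 differences of these genes depend on the scaling.

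Compared directly, 10 of the 10 genes had a KD-1 value below the KD-2 value by over 1.5-fold, beside 16.1% of all measured genes, 8 were lower by over 2-fold, beside 7.89%, and 6 by over 4-fold, beside 0.942%. None of the 10 was higher by over 1.5-fold, beside 13.9% of all genes. The log2 fold change of KD-1 against KD-2 was -3.84 for Usp18 (interval -4.57 to -3.25), -3.73 for Ifi44 (interval -4.09 to -3.41) and -3.47 for Isg15 (interval -3.80 to -3.17). For Ifit2 it was -0.78 and for Bst2 -0.71. All 14 feeder fibroblast markers were lower in this comparison too, as described with those markers. This comparison and that of KD-1 with control share the KD-1 library, and the comparisons of KD-1 and of KD-2 with control share the control library.

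Levels of different genes were compared per length, as RPKM over exon length and reads on genes. For Ifit3 the RPKM is uncertain, since 51.2% of its 50-base stretches are shared with Ifit3b and reads of low mapping quality may have been removed. Its place in the order was not settled. In control cells Bst2 was highest at 21.7 RPKM, followed by Isg15 at 12.8, Ifit3 at 8.64, Ifit1 at 6.56, Ifit2 at 5.01, Ifi44 at 3.19 and Usp18 at 2.60. Mx2 at 0.605 and Rsad2 at 0.515 had intervals that overlapped, and Mx1 was lowest at 0.175. In KD-2 the order was the same except that Ifi44 at 4.77 and Ifit2 at 4.72 changed places, with intervals that overlapped. In KD-1 Bst2 was at 18.1 RPKM, Ifit2 came next at 2.45, and Isg15 at 1.46 and Ifit3 at 1.16 overlapped within counting error. Usp18 was at 0.146 RPKM in KD-1. As a share of the reads on the 10 genes, Bst2 took 17.8% in control (exact interval 16.9 to 18.8), 46.0% in KD-1 (44.1 to 47.9) and 22.6% in KD-2 (21.7 to 23.5). Ifit1 took 18.1%, 5.94% and 15.6%, and Usp18 took 4.77%, 0.827% and 3.64%.

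The remainder of the pathway was described from lists of genes. Of 21 interferon genes, 0 averaged 10 reads or more, and together they had 22, 25 and 19 reads in the control, KD-1 and KD-2 libraries. Ifnb1, which encodes interferon beta, had 0, 0 and 1 reads, where a count of 0 allows up to 3 reads (a one-sided 95% limit). Ifna13 had 8, 11 and 7 reads. In the same order of libraries, 15, 17 and 13 of the 21 genes were at 0 reads. Among the 6 receptor genes, Ifnar1, a chain of the type I receptor, had 4751, 5952 and 5838 reads, giving 0.10 (KD-1) and 0.19 (KD-2) on the log2 scale. In KD-1, 1 of the 6 was lower by over 1.5-fold and 1 was higher, beside 5.62% and 8.63% of all measured genes. They were Il10rb, a chain of the type III receptor, at -0.66, and Ifnlr1, its partner, at 0.61 on few reads. In KD-2, 0 were lower and 2 were higher, Ifngr1 at 0.68 and Ifngr2 at 0.81, beside 10.2% and 17.1% of all genes. In KD-1 against KD-2, 4 were lower and 0 were higher, beside 16.1% and 13.9%.

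Among the signal transducers, the transcription factor genes Stat2 and Irf9 were lower by over 1.5-fold in KD-1 against control. Those of the kinases were not. Stat2 had 682, 388 and 817 reads in the control, KD-1 and KD-2 libraries, giving -1.04 (KD-1) and 0.15 (KD-2), and Irf9 had 1147, 814 and 1302 reads, at -0.72 and 0.08. The kinase genes Jak1, Jak2 and Tyk2 were at -0.13, -0.09 and 0.13 in KD-1 and at 0.56, 0.50 and 0.39 in KD-2. In KD-1 against KD-2 they were at -0.69, -0.59 and -0.25, so that Jak1 and Jak2 were lower by over 1.5-fold there. STAT2 and IRF9 are themselves encoded by interferon-stimulated genes. Of the 10 genes that sense nucleic acid or switch on interferon, 3 were lower by over 1.5-fold in KD-1 with 0 higher. Over all measured genes the shares were 5.62% and 8.63%. In KD-2, 0 were lower and 1 was higher, beside 10.2% and 17.1% of all genes. In KD-1 against KD-2, 5 were lower and 1 was higher, beside 16.1% and 13.9%. Ifih1, which encodes the RNA sensor MDA5, had 289, 125 and 386 reads, at -1.43 in KD-1. Irf7, the regulator of interferon alpha genes, had 94, 42 and 103 reads, at -1.38. Tlr3, an endosomal sensor of double-stranded RNA, was at -0.63. Irf3, Mavs and Tbk1 were at -0.04, 0.19 and -0.36. Of the 6 inhibitors of signalling, 0 were past 1.5-fold in KD-1, where 5.62% of all measured genes were lower and 8.63% higher. Socs3 was at 0.20.

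A list of 77 other interferon-stimulated genes had 72 measured members. In KD-1, 38 of them (52.8%) were lower by over 1.5-fold and 1 was higher, beside 5.62% and 8.63% of all measured genes, and the list median was -0.70 on the log2 scale. In KD-2, 6 (8.33%) were lower and 9 (12.5%) were higher, beside 10.2% and 17.1% of all measured genes, with a median of 0.01. The 6 genes with the largest differences in KD-1 at an average of 100 reads or more were Gbp3, Ifit3b, Rtp4, Gbp7, Igtp and Gbp2. The Gbp genes and Igtp encode GTPases that act on pathogen vacuoles. Gbp3 had 221, 37 and 290 reads in the control, KD-1 and KD-2 libraries, at -2.79 in KD-1. Rtp4 had 291, 52 and 307 reads, at -2.70, and Gbp7 had 142, 29 and 165, at -2.50. Igtp was at -2.09 and Gbp2 at -1.63. Other genes of the list did not share the difference. Ifitm2 and Ifitm3, membrane proteins that block viral entry, were at -0.08 and -0.36 in KD-1, Eif2ak2, the kinase PKR, was at -0.32, and Oas1a was at 0.42. Within the list the log2 fold changes in KD-1 ran from -2.79 for Gbp3 to 1.08 for Sp110.

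**Figure D2:**
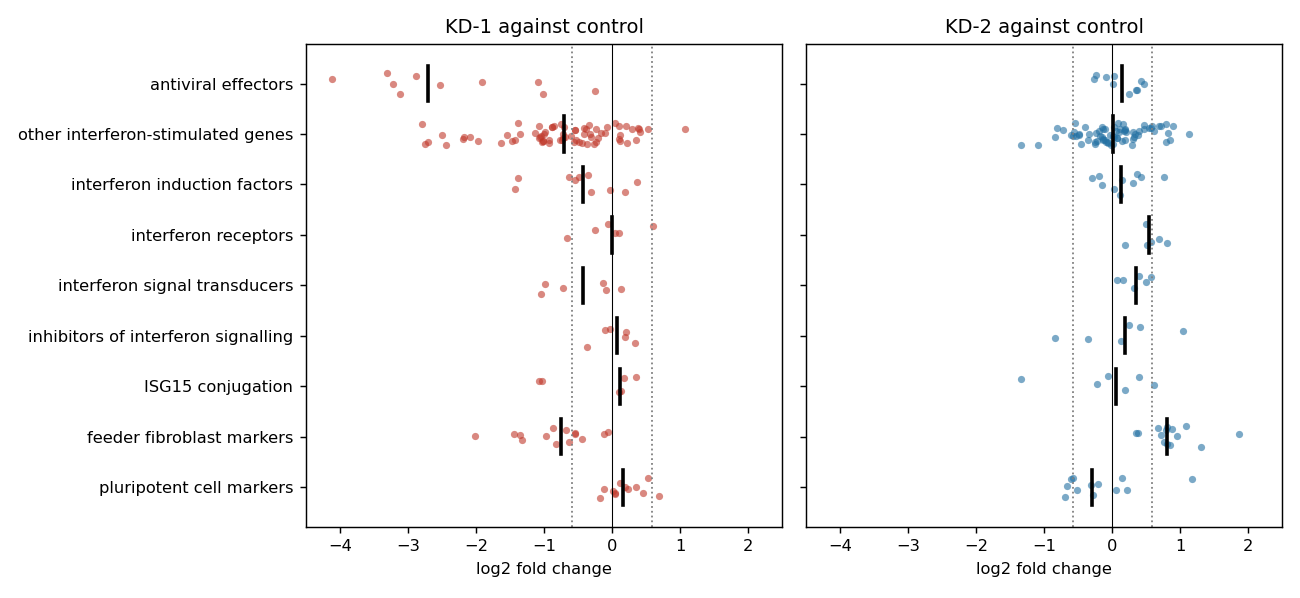
log2 fold change of each measured gene (horizontal axis) by gene list, in KD-1 (left) and KD-2 (right) against control. Points are genes, black bars are medians and dotted lines mark 1.5-fold. In KD-1 the median is -2.71 for the antiviral effectors and -0.70 for the other interferon-stimulated genes, and in KD-2 these medians are 0.14 and 0.01.

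Promoter motif and fold change were set side by side over measured genes other than the 10. Of 436 genes with the response element motif in a promoter window on either strand, 9.86% were lower by over 1.5-fold in KD-1, and of 11843 genes without it, 4.96% were. In KD-2 the shares were 10.8% and 9.57%. The sets with and without the motif both include other interferon-stimulated genes, a list chosen with earlier results of these data known. Among these, 15 of 27 with the motif and 12 of 29 without it were lower in KD-1. These 15 are part of the 43 lower genes behind the 9.86%. Of the 7 effector genes with a window, those with the motif were Ifit1, Isg15 and Ifit3, at -3.22, -3.12 and -2.89, and Rsad2 and Bst2, at -1.10 and -0.25. Those without it were Ifi44, at -3.31, and Ifit2, at -1.02, so that both sets held large and small differences.

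The feeder fibroblasts are the other cells in these cultures, and their markers differed between the libraries as well. Of the 14 feeder markers, 9 were lower by over 1.5-fold in KD-1 and 0 were higher, beside 5.62% and 8.63% of all measured genes. The list median was -0.75 on the log2 scale, with a range from -2.01 for Postn to -0.07 for Fbln2. In KD-2, 12 were higher and 0 were lower, beside 17.1% and 10.2% of all genes, with a list median of 0.80. On the log2 scale their summed scaled reads stood at -0.86 (KD-1) and 0.78 (KD-2) against control. Of the 12 pluripotent cell markers, 0 were lower and 1 (8.33%) was higher in KD-1, beside the same 5.62% and 8.63%. In KD-2, 3 (25%) were lower and 1 (8.33%) was higher, beside 10.2% and 17.1%. Taken relative to the summed feeder markers, 7 of the 10 effector genes were lower by over 1.5-fold in KD-1, beside 0.468% of all measured genes, whose median on this scale was 0.88. The 7 were Usp18 at -3.25, Ifi44 at -2.44, Ifit1 at -2.36, Isg15 at -2.26, Ifit3 at -2.03, Mx2 at -1.67 and Mx1 at -1.05. Ifit2 and Rsad2 were at -0.16 and -0.23, close to the feeder markers themselves, and Bst2 was at 0.61, higher by over 1.5-fold as were 85.3% of all genes. In KD-2, 5 of the 10 were lower by over 1.5-fold relative to the same sum and 0 were higher, beside 64.1% and 1.75% of all genes, whose median on this scale was -0.80. In KD-1 against KD-2, where 14 of the 14 feeder markers were lower by over 1.5-fold with a median of -1.73 and a sum at -1.64, 6 of the 10 effector genes were lower relative to the sum, beside 0.576% of all genes. These were Usp18, Ifi44, Isg15, Ifit1, Ifit3 and Mx2, while Ifit2 at 0.86 and Bst2 at 0.93 were higher by over 1.5-fold, as were 92.8% of all genes. The part of the feeder cells in the differences of the effector genes was not tested.

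**Figure D3:**
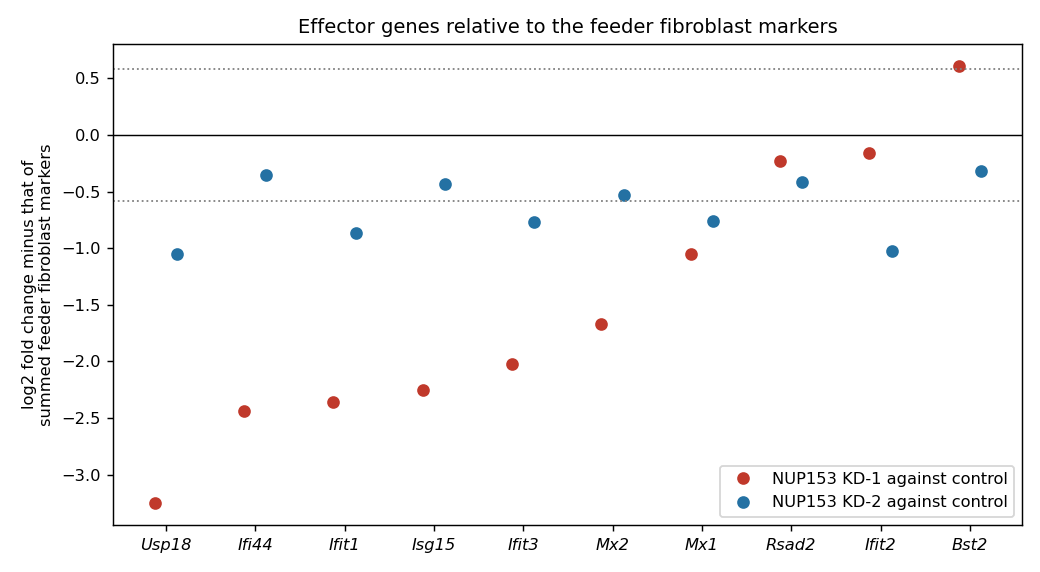
log2 fold change of each effector gene minus the log2 fold change of the summed feeder fibroblast markers (vertical axis) in NUP153 KD-1 and NUP153 KD-2 against control, with dotted lines at 1.5-fold. In KD-1 Usp18 is at -3.25 and Bst2 at 0.61, and in KD-2 all 10 genes lie between -1.05 and -0.32, where the median of all measured genes is -0.80.

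The genes whose pattern was most like that of the 10 were sought among 12735 genes that averaged 100 reads or more, by the distance to the median of the 10 genes in the plane of the KD-1 and KD-2 log2 fold changes, over 3 libraries. The 5 nearest were Rtp4 at a distance of 0.17, Gbp3 at 0.17, Ifit3b at 0.17, Gbp7 at 0.22 and Iigp1 at 0.44. Iigp1, an interferon-inducible GTPase outside of the lists, had 207, 27 and 260 reads in the control, KD-1 and KD-2 libraries. Of the 20 nearest genes, 7 are in the list of other interferon-stimulated genes, which made up 53 of the genes considered, and the others include the feeder marker Postn, at 0.88.

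**Figure D4:**
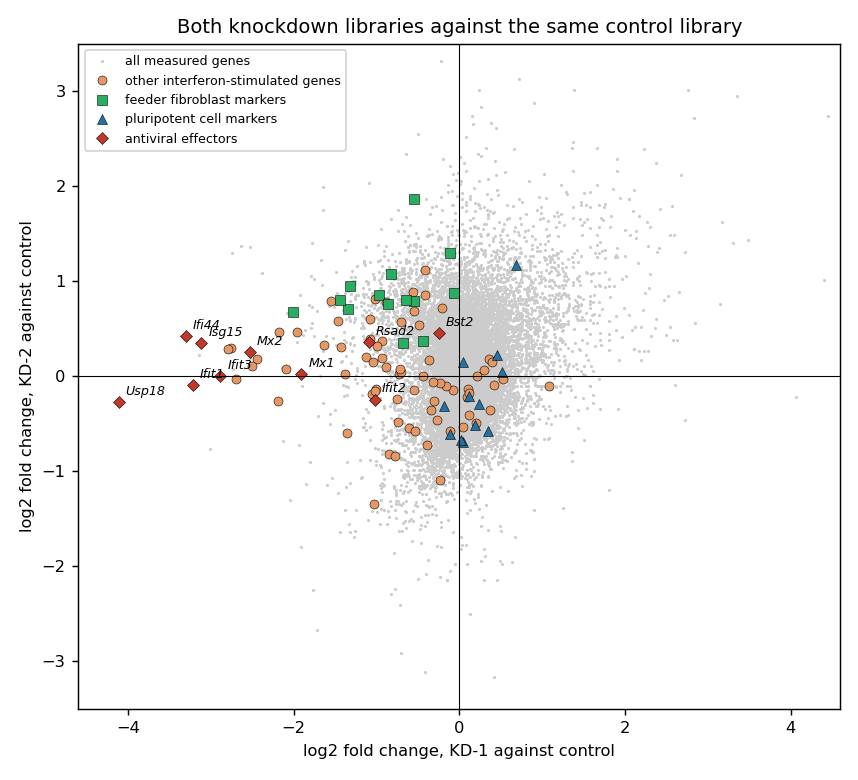
log2 fold change in KD-1 (horizontal axis) and KD-2 (vertical axis) against the same control library for all measured genes, with the antiviral effectors, the other interferon-stimulated genes, the feeder fibroblast markers and the pluripotent cell markers. The effectors spread to the left near 0 on the vertical axis, from -4.12 for Usp18 to -0.25 for Bst2, while the feeder markers lie to the left and above 0.

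Position was compared through the 3 nearest measured genes on each side of each effector gene. Of 46 such genes that are not among the 10, 9 (19.6%) were lower and 1 was higher by over 1.5-fold in KD-1, beside 5.62% and 8.63% of all measured genes, and their median was 0.01 on the log2 scale. Of the 42 that stand in no list, 6 (14.3%) were lower. On chromosome 19 the genes Ifit3b and Ifit1bl1, between Ifit3 and Ifit1, were at -2.75 and -2.19, while Ifit1bl2, next to Ifit1, had 37, 47 and 30 reads and was at 0.12. Beyond the Ifit cluster, Pank1 was at 0.03 and Kif20b at -0.02, and Lipa was at -0.88 on the other side. To the left of Isg15, Agrn was at 0.45, and to the right AW011738 was at -1.16 on 35, 18 and 69 reads. Near Ifi44, Adgrl4 was at -1.65, Gipc2 at -0.79 and Dnajb4 at -0.67, with at most 18 reads a library for Adgrl4 and Gipc2. B3galt5, near Mx1, was at -1.25 on 23, 11 and 9 reads, and Pex26, near Usp18, was at 0.30. Fam3b, between Mx1 and Mx2, was at -0.27 on 29, 28 and 20 reads.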

How the data were processed

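RNA-Seq libraries of control, NUP153 KD-1 and NUP153 KD-2 mouse ES cells (1 each) were analysed. Reads of 50 bp were trimmed by the authors (Trim Galore 0.4.1), mapped to mm10 (TopHat 2.1.1) and, in the methods, counted at a mapping quality above 30. The values they deposited are raw, unscaled read counts per gene. The methods name featureCounts for this cut and the labels HTSeq, so that the cut is uncertain for the deposited counts. Strand handling is not given in the sources used here. The 5 summary lines were left out. Those for reads on no gene and for ambiguous reads held 23.0 to 25.6% of these reads and reads on genes together.

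Libraries were scaled by upper-quartile normalization (edgeR 4.0.16, R 4.3.3). log2 fold changes used a pseudocount of 0.5 scaled reads, so that they understate changes of genes with few reads. The study's fold of 1.5 was used on genes that averaged 10 reads or more. No test was run, since a test on 1 library per condition compares libraries and not conditions. Intervals of 95% are exact conditional binomial (Clopper-Pearson) for count ratios, exact Poisson for levels and exact binomial for shares. The procedure was tested on simulated data. Of 24421 genes, 23376 matched GENCODE vM21 (GRCm38) by symbol, and exon length was the union of exons in its basic set. Reads of 50 bases shared between genes were sought in its transcripts. Alternatives were TMM, size factors of DESeq2 1.42.0, library totals, a pseudocount of 5, no minimum or a minimum of 100 reads, and a fold of 2. For the feeder sum they were each marker left out and the median of the markers. Genes named beyond the 10 were taken from those with the largest absolute log2 fold change in KD-1 and at least 100 reads on average in each list (up to 6 of the other interferon-stimulated genes, up to 3 elsewhere), the 20 nearest in pattern and Nup153. Any further gene was picked with its values in view. Of the 77 other interferon-stimulated genes, 10 also stand in another list. A result on a listed gene is not reported here. The members and lists were chosen with earlier results of these data known. Python 3.11.15, numpy 2.4.6, pandas 2.3.3, scipy 1.17.1 and matplotlib 3.10.9 were used.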

Additional observations from a re-analysis of the deposited data

Results flagged for a closer look

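In 11 genes of the lists with a mean of at least 100 reads, the KD-1 and KD-2 libraries lay past 1.5-fold from control in opposite directions, below it in KD-1 and above it in KD-2. This difference was not tested, and both comparisons share the control library. Of the 11, 3 are interferon-stimulated genes, with log2 ratios of KD-1 to KD-2 of -2.34 for Ifi27, -1.67 for Tap1 and -1.69 for Uba7. The other 8 are feeder fibroblast markers. Their log2 ratios of KD-1 to KD-2 were -2.06 for Col1a2, -2.28 for Col3a1, -1.83 for Col5a2, -1.44 for Dcn, -2.25 for Lum, -1.91 for Pdgfrb, -2.69 for Postn and -1.63 for Prrx1. None of the 10 antiviral effectors was among them, since 0 were past 1.5-fold in KD-2.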

How the results depend on the processing

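With 1 library per condition and few reads for the Mx genes, the counting of reads limits the precision and the spread between cultures is unknown. No paired analysis was possible because each condition has 1 library. The count of effector genes lower by over 1.5-fold in KD-1 against control was 9 with TMM, DESeq2 size factors, library totals, a pseudocount of 5, no minimum mean and a fold of 2, and 7 of the 8 genes left with a minimum mean of 100 reads. In KD-1 against KD-2 it lay between 8 and 10. Library totals gave 1 effector gene higher in KD-2 than control in place of 0, and moved the median of all genes in KD-2 to 0.14. By construction a fold of 2 called fewer genes. In KD-1 against control it left 24 of the other interferon-stimulated genes, 4 feeder markers, 1 signal transducer and 0 receptors lower and 0 receptors higher. In KD-2 against control it left 2 other interferon-stimulated genes lower and 1 higher, 3 feeder markers higher and 0 receptors higher. In KD-1 against KD-2 it left 1 other interferon-stimulated gene higher, 2 signal transducers lower and 1 receptor lower. A minimum mean of 100 reads left 0 other interferon-stimulated genes and 0 receptors higher in KD-1 and 5 other interferon-stimulated genes higher in KD-2. The 1 receptor that was higher in KD-1, Ifnlr1, was also lost with DESeq2 size factors and with a pseudocount of 5, to 0. In KD-2, 1 signal transducer was higher with TMM and 1 with DESeq2 size factors. Library totals gave 2 signal transducers, 5 receptors and 14 other interferon-stimulated genes higher in KD-2, and 2 other interferon-stimulated genes higher in KD-1 than in KD-2. The numbers of effector genes lower relative to the feeder markers stayed within 1.5 times under the alternatives tried on them. These were the pseudocount, the minimum means and the changes of the feeder sum. A fold of 2 was not tried on them, and in KD-2 against control only Usp18 at -1.05 and Ifit2 at -1.02 lay past it. No value of an effector gene past 1.5-fold changed sign, and other genes were not followed singly.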

Other observations

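Over all measured genes, 28 were lower by over 4-fold in KD-1 than in control. Besides 6 of the antiviral effectors they comprised 8 of the other interferon-stimulated genes, 1 feeder marker (Postn) and 13 genes in no list. They are named with their values in view. Among the 13, those that averaged 100 reads or more were Iigp1, Comp and Agtr2. Iigp1 had 207, 27 and 260 reads in the control, KD-1 and KD-2 libraries, at 0.22 in KD-2 on the log2 scale. Comp, which encodes a cartilage matrix protein, had 1340, 234 and 3547 reads, at 1.30 in KD-2, and Agtr2, an angiotensin receptor, had 6522, 1812 and 11163, at 0.67. The other 10 had fewer reads, and over all 13 the log2 fold changes in KD-2 ran from -1.30 for Entpd2, on 19, 5 and 8 reads, to 2.46 for Hbb-bh1, on 4, 0 and 26 reads. With 0 reads in KD-1, the fitted value of Hbb-bh1 there rests on the pseudocount.

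The other interferon-stimulated genes with a difference of over 4-fold in KD-1 were Gbp3, Ifit3b, Rtp4, Gbp7, Oasl2, Ifit1bl1, Apol9a and Igtp. Oasl2, an oligoadenylate synthetase-like protein, had 118, 25 and 144 reads, and Apol9a, an apolipoprotein L, had 71, 18 and 106. In these 8 genes the KD-2 library lay between -0.26 for Ifit1bl1 and 0.47 for Apol9a on the log2 scale.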
